A study of Bos taurus with 56 samples.

Results

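In cattle embryos at day 14, 154692 narrow stretches of accessible chromatin were listed that overlapped no peak in the lists of the other stages of the series. They are the regions below 200 bp in width, called narrow regions here, that carried a peak in the list of day 14 elongating embryos and in none of the other 10 lists. To find them, overlapping peaks of all 11 lists were joined into 482097 union regions, an overlap of 1 bp being enough. Of these union regions, 63% were in the day 14 list alone, and 32.1% were in the day 14 list alone and below 200 bp. The regions were chosen by 2 measured values, presence in the lists and width, so their number and their widths are descriptions and support no comparison of stages. Each narrow region was a single day 14 peak, and together they made up 41.5% of the 372509 day 14 peaks. The other lists were much shorter, from 730 peaks in MII oocytes to 88858 in morulae without the in vivo label. The blastocyst lists held 3397 peaks, and 2587 with the in vivo label. How far list length bears on absence from the other lists was not tested.

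ATAC-seq uses a transposase that cuts and tags DNA where it is free of tightly bound nucleosomes, so that pile-ups of tagged fragments, the peaks, mark open promoters, enhancers and similar elements. In cattle, the blastocyst leaves its zona and then does not implant at once: it grows into a long thread in the uterus, the elongating embryo. Its outer layer, the trophectoderm, makes most of that length and secretes interferon tau, the signal by which the mother recognises the pregnancy. Beside the trophectoderm the elongating embryo holds the epiblast, which gives the body, and the hypoblast, which lines the cavity.

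The day 14 list was merged by the authors from 6 libraries, each made from pooled Bos taurus embryos. The lists used only to decide membership came from GV oocytes (immature, 6 libraries), MII oocytes (mature, 5), 2-cell (6), 4-cell (6), 8-cell (5) and 16-cell (5) embryos, morulae (6), blastocysts (3), and morulae (4) and blastocysts (4) labelled as derived in vivo. No treatment or genotype is named in the labels, and for embryos without the in vivo label, day 14 embryos included, the labels do not say how they were produced. The labels name no dissected tissue at day 14, and which of the tissues above a region came from was not tested.

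Each list holds positions only, with no height, score or read count, so the sequencing depth behind a region and the number of libraries that showed it are unknown. With 1 merged list per stage there is no spread between replicates and no p-value is given. Intervals in brackets are 95% intervals, exact Clopper-Pearson for a share and from order statistics for a median. They cover counting error only and treat neighbouring regions as independent.

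Peaks below 200 bp were found in 4 of the 11 lists. The day 14 list held 170487 of them, 45.8% of its peaks. The blastocyst list held 1318 (38.8%), the morula list 1031 (1.16%) and the 16-cell list 668 (0.880%), and the other 7 lists held none. Those 7 lists started at 216 to 268 bp, whereas the narrowest day 14 peak was 125 bp wide. A stage whose list starts above 200 bp could still share a position with a narrow day 14 peak, but only through a wider peak of its own. Of the day 14 peaks below 200 bp, 15795 overlapped a peak of any width in another list and were therefore not counted, which left 90.7% (90.6% to 90.9%). Among day 14 peaks of 200 bp or more, 73.8% (73.6% to 74.0%) were in no other list. An overlap of 1 bp is met more easily by a wider peak. How far width alone bears on the difference between these shares was not tested. The wider day 14-only regions, 149116 in number, are the main set against which the narrow regions are described below.

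Narrow regions were slightly more numerous than the wider day 14-only regions, at 50.9% of all 303808 regions of the day 14 list alone, but covered far less sequence. They spanned 24.7 Mb, or 0.929% of the chromosomes and 19.9% of all day 14 peak bases, against 59.8 Mb and 48.2% for the wider ones. Their median width was 158 bp, with 25% of them at or below 147 bp and 25% at or above 172 bp. The narrowest width of 125 bp was shared by 731 regions. The distribution was stepped and not smooth. From 1 bp to the next, the number of day 14-only regions went from 855 at 131 bp to 1289 at 132 bp, from 1334 at 133 bp to 1851 at 134 bp, and from 1789 at 142 bp to 2659 at 143 bp. A spike followed at 153 bp, the most frequent width, with 4519 regions between 3411 at 152 bp and 3634 at 154 bp. With a limit of 150 bp in place of 200 bp there would be 46649 narrow regions. The limit of 200 bp itself fell on a smooth slope, with 903 regions of 199 bp inside it and 954 regions of 200 bp outside it.

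**Figure D1:**
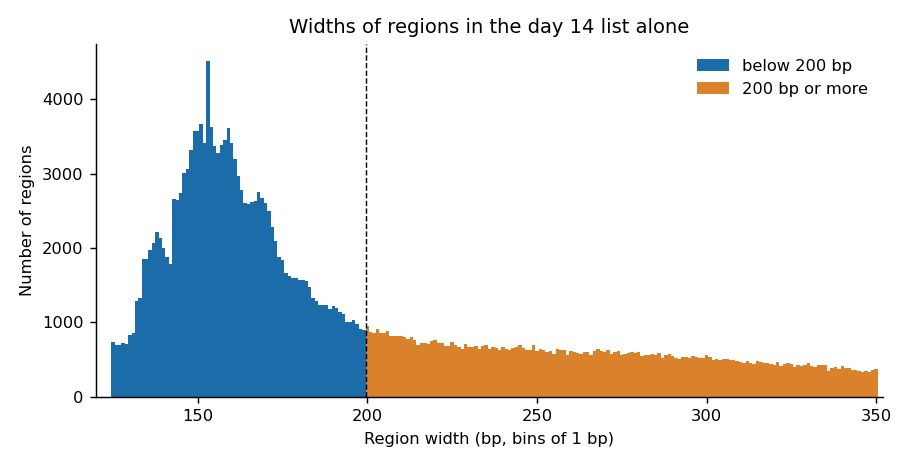
Number of day 14-only regions (vertical axis) at each width in bp (horizontal axis, bins of 1 bp, shown up to 350 bp), with narrow regions in blue and those of 200 bp or more in orange. The counts jump at 132, 134 and 143 bp and spike at 153 bp, and no step marks the dashed limit at 200 bp.

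A majority of narrow regions had no other day 14 peak within 1 kb, and 47.6% had one. The median gap, measured between facing edges, was 2930 bp (2898 to 2960 bp) from a narrow region to the nearest other narrow region. It was 2402 bp (2373 to 2428 bp) to the nearest day 14 peak of 200 bp or more, and 1113 bp (1101 to 1126 bp) to the nearest day 14 peak of any width. Gaps were very uneven, since 5% of narrow regions had another one within 139 bp and 5% had none within 31906 bp. The gap depends on how many regions are counted, and with a width limit of 150 bp its median was 10841 bp. The majority, 81982 (53.0%), had neither a wider day 14 peak nor another narrow region within 1 kb.

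Chains of narrow regions, in which each lay within 1 kb of the next, held 40180 of them (26.0%). By comparison, 10.9% of all chromosome bases lay in or within 1 kb of a narrow region. How far that share of bases changes when weighted by local density was not tested. Pairs were the usual form, with 14216 chains of 2 and 2632 chains of 3, and chains of 4 or more held 2.49% of the narrow regions. The longest chain lay on chromosome 14 from 2305919 to 2312201 (UMD3.1), where 11 narrow regions of 134 to 192 bp followed each other at gaps of 280 to 697 bp over 6283 bp. No wider day 14 peak and no peak of another list lay inside that span, and 1 wider day 14 peak lay within 1 kb of it. The next longest, on chromosome 22 from 59604248 to 59609491, held 10 narrow regions and 1 wider day 14 peak in 5244 bp. Chains of 8 were found at chr21:33323184-33329135, chr3:106019407-106024299 and chr7:3074560-3079630. The chain on chromosome 3 had no wider day 14 peak inside it or within 1 kb, whereas those on chromosomes 21 and 7 enclosed 2 and 1. None of the 5 chains enclosed a peak of another list. Which genes lie at these positions was not analysed here, because the gene table at hand is of another assembly.

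At the other extreme, 247 narrow regions (0.160%) had no other day 14 peak within 100 kb, and 69 of these were on X, a chromosome that held 0.869% of all narrow regions. The 3 most isolated were all on X. The region from 9790079 to 9790216, 138 bp wide, was 593706 bp from the nearest day 14 peak. That from 120237190 to 120237361 (172 bp) was 556670 bp from it, and that from 73555403 to 73555537 (135 bp) 501700 bp. All 3 were nearer to a peak of another stage, at 23266, 3168 and 32651 bp, than to any day 14 peak.

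Narrow regions lay near wider day 14 peaks more often than chromosome bases did, and the excess was smaller when bases were compared within the same parts of the genome. Of the narrow regions, 49627 (32.1%, 31.8% to 32.3%) lay within 1 kb of a day 14 peak of 200 bp or more, against 11.4% of all bases outside such peaks. When the bases of each 1 Mb window were weighted by the narrow regions in it, the share of bases was 22.6%, and in windows of 100 kb it was 26.5%. The ratio of regions to bases thus went from 2.81 over whole chromosomes to 1.42 in 1 Mb windows and 1.21 in 100 kb windows. Distances were also taken from midpoints, which, unlike bases, cannot lie right beside a wider peak because a region has width. The midpoint share is therefore low when set against bases. Taken at their midpoints, 30.5% of narrow regions lay within 1 kb, 1.15 times the share of bases in 100 kb windows. Of all narrow regions 20.1% had a wider peak within 500 bp and 65.1% within 5 kb, and 14.7% had a day 14 peak of at least 400 bp within 1 kb.

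Narrow regions were farther from the nearest wider day 14 peak, shared with other stages or not, than wider day 14-only regions were from the nearest other one. Of the wider day 14-only regions, 46.7% (46.4% to 46.9%) had another day 14 peak of 200 bp or more within 1 kb. Their median gap to it was 1150 bp. The gradient was continuous in width and showed no break at 200 bp. The share within 1 kb was 29.3% for regions of 125 to 131 bp, 31.4% for 153 to 172 bp, 35.2% for 173 to 199 bp and 37.9% for 200 to 249 bp, and reached 70.1% for 1000 bp and more. On either side of the limit, 35.03% of regions of 190 to 199 bp and 36.3% of those of 200 to 209 bp had a day 14 peak of 210 bp or more within 1 kb. Narrow peaks that were present in another list stood between the main sets, with 38.3% (37.5% to 39.0%) within 1 kb.

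The difference also appeared within classes of 1 Mb windows grouped by their day 14 peaks of any width, narrow regions included. Windows in a class were not matched for wider peaks, and the top class had no upper limit. In 1 Mb windows with fewer than 25 day 14 peaks, 3.36% (2.79% to 4.00%) of narrow regions and 9.30% (7.82% to 10.97%) of wider day 14-only regions had a wider day 14 peak within 1 kb. In windows with 100 to 199 day 14 peaks the shares were 19.4% and 28.3%, and in those with 400 or more they were 60.0% (59.5% to 60.5%) and 68.4% (68.0% to 68.9%).

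**Figure D2:**
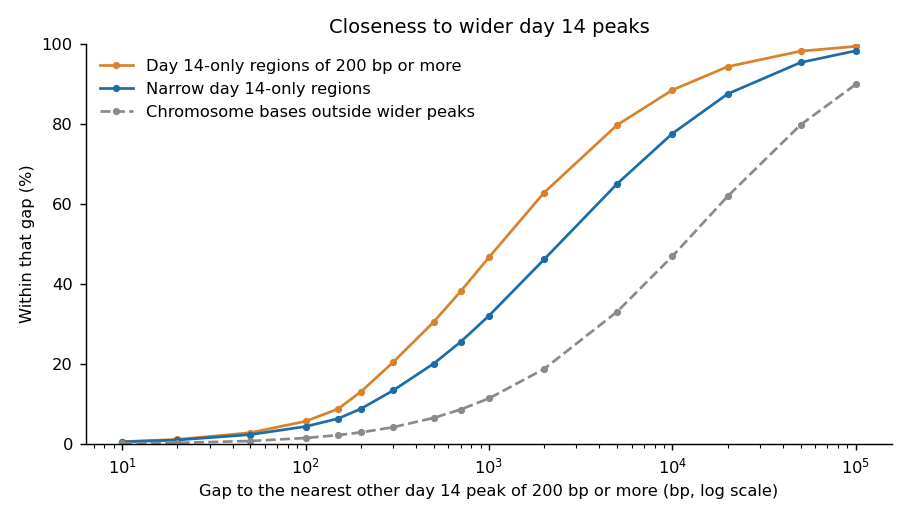
Share (vertical axis, %) of narrow day 14-only regions (blue), wider day 14-only regions (orange) and chromosome bases outside wider peaks (grey, dashed) that lie within a given gap (horizontal axis, bp, log scale) of the nearest other day 14 peak of 200 bp or more. At 1000 bp the curves stand at 32.1%, 46.7% and 11.4%.

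The flanking arrangement had no preferred side. A wider day 14 peak lay within 1 kb on both sides of 12026 narrow regions (7.77%) and on 1 side of 37601 (24.3%), and in the latter it was at the lower coordinate in 50.04% (49.5% to 50.5%). The nearest wider peak was in turn day 14-only in 86.6% (86.3% to 86.9%) of the narrow regions that had one within 1 kb, whereas 73.8% of all wider day 14 peaks were day 14-only. The rule bears on this value, since it removes narrow peaks that another stage's peak covers. With all day 14 peaks below 200 bp counted, it was 80.1% (79.8% to 80.4%). The median width of the nearest wider peak was 337 bp, close to the 345 bp of all wider day 14 peaks.

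Seen from the wider peaks, 31.3% (31.0% to 31.5%) of those in the day 14 list alone had a narrow region within 1 kb, with up to 6 beside a single peak, against 14.9% (14.6% to 15.2%) of those shared with other stages. The rule bears on this contrast in the same way. With all day 14 peaks below 200 bp counted, the shares were 32.4% and 23.3%. Among day 14-only peaks the share with a narrow region within 1 kb was 28.6% at 200 to 249 bp, 34.7% at 600 to 999 bp and 31.2% (27.0% to 35.6%) at 2000 bp and more.

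Short gaps were not evenly filled. The counts are of regions, so a gap between regions of the same set that were nearest to each other was counted from both. Heights are therefore not comparable between the kinds of pair. Counted in bins of 10 bp, the gap from a narrow region to the nearest wider day 14 peak was 1 to 10 bp in 855 cases, so that near-touching peaks remained separate in the deposited list. The number fell to 543 at 121 to 130 bp and was 816 at 211 to 220 bp, 1.503 times the low, before it declined to 444 at 491 to 500 bp. Between narrow regions the same shape was found, with 794 cases at 1 to 10 bp, a low of 416 at 101 to 110 bp and a high of 643 at 231 to 240 bp. Gaps from wider day 14-only regions to the nearest wider day 14 peak stayed nearly level from 11 to 130 bp, at 805 to 898 a bin, and then rose to a high of 1413 at 161 to 170 bp. A rise above about 130 bp was thus found in all 3 kinds of pair, whereas the counts fell before it in the pairs with a narrow region.

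**Figure D3:**
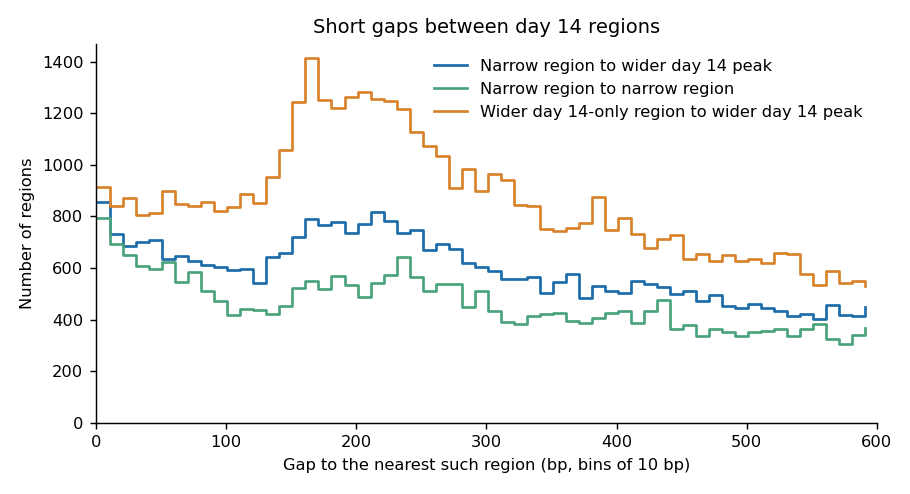
Number of regions (vertical axis) by gap to the nearest region of the stated kind (horizontal axis, bp, bins of 10 bp, shown to 600 bp). Pairs with a narrow region (blue, green) fall to lows of 543 and 416 and rise again to 816 and 643, and pairs of wider regions (orange) are nearly level up to 130 bp and rise to 1413.

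Chromosomes differed strongly in narrow regions. The mean density was 58.1 per Mb, taking the last peak position in any list as the end of each chromosome. Chromosomes 19, 25 and 18, which are gene-dense in cattle, were densest, at 122, 117 and 96.9 narrow regions per Mb. The sparsest were X, 6 and 9, at 9.04, 35.9 and 36.5 per Mb. Pooled over chromosomes 18, 19 and 25, the density was 2.04 times (2.01 to 2.07 times) that of the remaining chromosomes, and on X it was 0.148 times (0.140 to 0.156 times) that of the autosomes. The order of chromosomes was nearly that of the wider day 14-only regions, with a Pearson correlation of 0.99 and a Spearman correlation of 0.99 across 30 chromosomes, which share the same libraries, depth and peak calling.

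Among day 14-only regions, the contrast between chromosomes was flatter for narrow than for wider ones. For wider day 14-only regions the density on chromosomes 18, 19 and 25 was 2.63 times (2.59 to 2.67 times) that of the rest, and that on X 0.0937 times (0.0874 to 0.100 times) that of the autosomes. Among the 29 autosomes the densest exceeded the sparsest 3.40 times in narrow and 5.94 times in wider day 14-only regions. Day 14 peaks found in another list were flatter than the narrow regions by each of these measures. Those below 200 bp stood at 1.19 times on chromosomes 18, 19 and 25, 0.415 times on X and 1.68 times between autosomes. Those of 200 bp or more stood at 1.87, 0.414 and 3.03 times. The share of day 14-only regions that were narrow ran from 44.5% (43.8% to 45.3%) on chromosome 19 and 45.0% (44.0% to 45.9%) on chromosome 25 to 58.8% (57.6% to 60.0%) on chromosome 9, 58.8% (57.4% to 60.1%) on chromosome 20 and 62.0% (60.0% to 64.1%) on X. Narrow regions outnumbered wider ones on 21 of the 30 chromosomes. Closeness to wider peaks differed too, and 47.6% of the narrow regions of chromosome 19 but 15.1% of those of chromosome 9 and 12.8% of those of X had a wider day 14 peak within 1 kb. The median gap between narrow regions was 1753 bp on chromosome 19 and 15400 bp on X. The median width, by contrast, was 157 to 159 bp on every autosome and 155 bp on X.

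**Figure D4:**
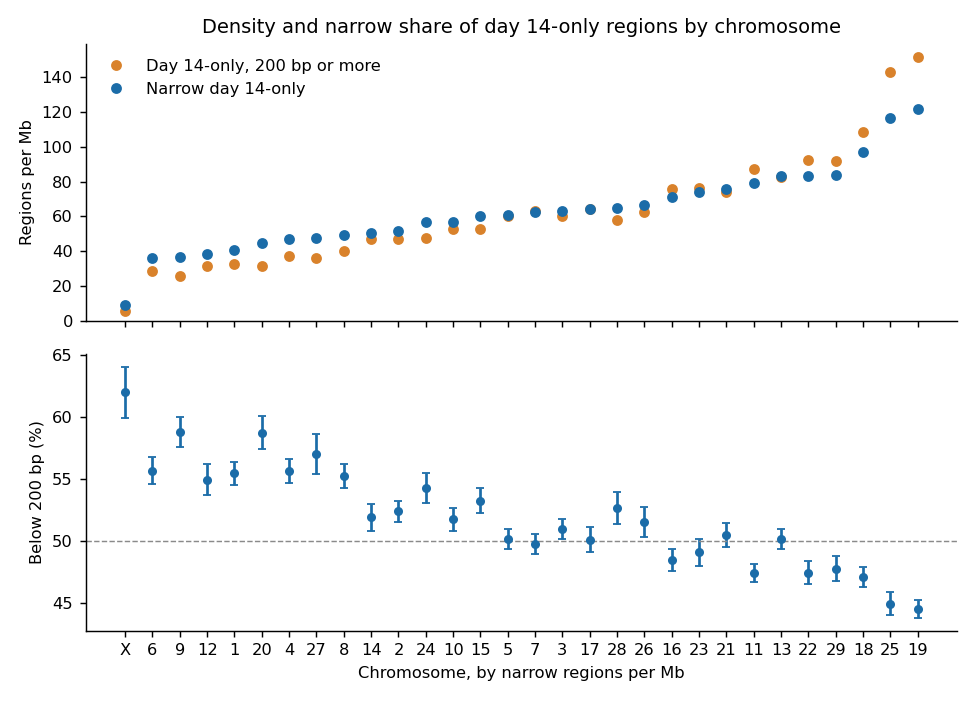
Upper panel: narrow (blue) and wider (orange) day 14-only regions per Mb (vertical axis) for each chromosome, ordered by narrow regions per Mb. Lower panel: percentage of day 14-only regions that are below 200 bp, with 95% exact intervals as bars and a dashed line at 50%. It runs from 62.0% on X to 44.5% on chromosome 19, and its vertical axis does not start at 0.

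The width classes within the narrow regions did not share one value for X. The density on X relative to the autosomes was 0.203 times (0.176 to 0.232 times) for regions of 134 to 142 bp and 0.116 times (0.102 to 0.131 times) for those of 173 to 199 bp, and it fell to 0.0236 times (0.00947 to 0.0486 times, 7 regions) for day 14-only regions of 1000 bp and more. On chromosomes 18, 19 and 25 the narrow classes lay between 1.89 and 2.14 times the rest, and the regions of 1000 bp and more reached 3.70 times (3.45 to 3.96 times). The classes below 200 bp were bounded at the steps of the width distribution and at its upper quartile, after it was seen.

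The same gradient ran through the genome at smaller scales. The chromosomes were divided into 2678 windows of 1 Mb, of which 7 held no narrow region, and the median window held 41 and the fullest 290. The fullest 267 windows held 30.2% of the narrow regions, and the 267 windows fullest in wider day 14-only regions held 41.6% of those. Windows with many wider peaks had many narrow regions, with a Pearson correlation of 0.93 and a Spearman correlation of 0.94 across windows of the same list. The proportion changed with crowding. In windows with fewer than 25 day 14 peaks, narrow regions were 72.4% (71.1% to 73.6%) of the day 14-only regions. The share was 62.1% in windows with 50 to 99 peaks, 48.5% in those with 200 to 399, and 41.3% (41.0% to 41.7%) in those with 400 or more.

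How X compared with the autosomes at similar crowding depended on how crowding was measured. In windows with fewer than 25 day 14 peaks, narrow regions made up 71.1% (67.2% to 74.9%) of the day 14-only regions on X and 72.5% (71.2% to 73.8%) on autosomes. In windows with 50 to 99 peaks they made up 55.7% (52.4% to 59.0%) on X and 62.3% (61.8% to 62.9%) on autosomes. Only 2 X windows held 100 to 199 peaks, with 58.0% (51.3% to 64.6%) against 56.0% (55.6% to 56.4%), and no X window held more. These counts of day 14 peaks include the narrow regions themselves. With windows classed instead by their regions of the other 10 lists, a measure added after seeing the data, the narrow share was higher on X in each class that X had. It was 69.5% (61.5% to 76.8%) against 62.6% (60.9% to 64.4%) in windows with fewer than 25 such regions, 64.0% (60.7% to 67.2%) against 56.0% (55.6% to 56.5%) with 25 to 49, and 59.6% (56.7% to 62.5%) against 51.2% (51.0% to 51.4%) with 50 to 99. The 3 windows with the most narrow regions were chromosome 18 between 13 and 14 Mb, with 290 narrow regions and 394 wider day 14 peaks, chromosome 11 between 104 and 105 Mb, with 273 and 508, and chromosome 25 between 1 and 2 Mb, with 271 and 456. Each held 4.66 to 4.99 times the mean density of narrow regions, and wider peaks outnumbered narrow regions in all 3.

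Along the autosomes narrow regions were most frequent towards the high-coordinate end. Each autosome was cut into 10 parts of equal length. Taken over all 29, part 10 held 17.5% (17.3% to 17.7%) of the narrow regions and part 9 held 12.8%, whereas parts 1 to 8 held 8.04% to 9.74% each. Part 10 was the fullest on 14 of the 29 autosomes. The rise was smaller than for wider day 14-only regions, of which 20.4% (20.2% to 20.6%) lay in part 10.

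By rule no narrow region touches a peak of another stage, and the share near one was slightly above that of bases. A peak of at least 1 of the other 10 lists lay within 1 kb of 20991 narrow regions (13.6%, 13.4% to 13.7%), against 11.6% of the bases outside those peaks, and the median gap was 5720 bp. For wider day 14-only regions the share was 15.1% (14.9% to 15.2%) and the median gap 5010 bp. Morula peaks were within 1 kb of 6.02% of narrow regions, 1.03 times the share of bases, and of 7.29% of wider day 14-only regions, 1.25 times the share of bases. For the 16-cell list the narrow regions stood at 0.993 times the share of bases and for the 8-cell list at 0.900 times. A GV oocyte peak lay within 1 kb of 795 narrow regions, or 0.514% (0.479% to 0.551%) against 0.319% of bases, and a 2-cell peak within 1 kb of 481, or 0.311% (0.284% to 0.340%) against 0.188%. For the blastocyst lists the shares were below those of the bases. They were 0.159% (0.140% to 0.180%, 246 narrow regions) against 0.203% without the in vivo label, and 0.103% (0.0874% to 0.120%, 159 narrow regions) against 0.178% with it. Wider day 14-only regions departed from the bases more in the GV, 2-cell and blastocyst lists, but not in every list. Their ratios to bases were 1.83 (GV), 1.85 (2-cell), 0.541 and 0.463 (blastocysts without and with the label). Those of narrow regions were 1.61, 1.66, 0.782 and 0.577. In the MII, 8-cell and in vivo morula lists narrow regions departed more. Their ratios there were 1.29, 0.900 and 0.869, against 1.08, 0.933 and 1.07 for wider day 14-only regions. The ratios were nearly equal for the 4-cell list, at 1.32 and 1.33, and were 0.993 and 1.08 for the 16-cell list. These shares of bases were taken over whole chromosomes, and how far they change when weighted by local density was not tested.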

How the data were processed

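Per the series description, the authors merged ATAC-seq peaks of the libraries of each stage, and 1 list per stage was deposited. The deposited lists hold 3 columns, chromosome, start and end position in bp, with no count, score or p-value. The submitters' processing notes name build UMD3.1 and the tools MACS2, HOMER, bedtools and Bowtie2 2.3, per the labels. How peaks were thresholded, shifted and merged was not stated in those notes or the files, and each of these affects which narrow peaks are listed. Starts were read as counted from 0 and are printed counted from 1, a convention the lists do not state. No genome or annotation of that build was used, so genes and sequences were not analysed here.

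Gaps, shares and densities were computed in Python 3.11.15 with numpy 2.4.6, pandas 2.3.3 and scipy 1.17.1, and plotted with matplotlib 3.10.9. The functions were checked on simulated lists with planted overlaps and gaps, and bedtools 2.31.1 gave the same number of regions, 154692. Members and measures were chosen with earlier results of these data known. Regions named by position are the longest chains, fullest windows and most isolated members, with the densest and sparsest 3 chromosomes. Alternatives changed the width limit, sharing rule, joining, distances, windows and chromosome lengths.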

Additional observations from a re-analysis of the deposited data

How the results depend on the processing

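Of 6 alternatives, the width limit of 150 bp alone moved the number of narrow regions by over 1.5 times, to 46649. Under that limit the share within 1 kb of a wider peak was 42.3%, the median gap between narrow regions 10841 bp and the X density 0.181 times that of the autosomes. The limit also set which day 14 peaks counted as wider, here those of 150 bp or more, so this share is not comparable with 32.1%. Near peaks of 200 bp or more, day 14-only regions of 134 to 142 bp stood at 30.9%. With a limit of 250 bp, and wider peaks of 250 bp or more, the share was 28.0% and the gap 2222 bp. The density on chromosomes 18, 19 and 25 was then 2.08 times the rest. Counting a region as shared when another list's peak lay within 500 bp gave 30.8% and 3066 bp. Requiring 50% of both peaks to overlap gave 32.7%, 2794 bp, 1.97 times on those chromosomes and 0.168 times on X. Joining day 14 peaks closer than 100 bp gave 28.9%, 3524 bp and 1.97 times. The share within 500 bp was 20.1% and within 5 kb 65.1%, and with wider peaks of at least 400 bp it was 14.7%. Distances from the midpoint of a narrow region to the midpoint of the other peak gave 25.4% and 3090 bp. This differs from the 30.5% above, for which only the narrow region was taken at its midpoint. Without the 10 fullest 1 Mb windows the values were 31.5%, 2999 bp and 1.99 times. Leaving out X, leaving out the lists labelled in vivo, or taking chromosome ends from the day 14 list alone moved no share, gap or density tested beyond counting error. Leaving out the lists labelled in vivo gave 156090 narrow regions. The difference in narrow share between the emptiest and fullest windows, 31.0 percentage points, was 30.01 in 100 kb windows and 16.6 when windows were classed by regions of the other 10 lists, 2 alternatives chosen after seeing the data. No paired analysis was possible because each stage has 1 merged list, and for the same reason no library could be left out. Depth is unknown, so whether deeper or shallower libraries would list the same narrow regions was not tested.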
